A study of Mus with 3 samples.

Results

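Dendritic cells are the antigen-presenting cells that carry tumor antigen to T cells, and 88 of them were found among the 5600 cell barcodes with 500 or more gene UMIs in single-cell RNA sequencing of MC38 tumors. MC38 is a mouse colon adenocarcinoma line, and the tumors were taken on day 16 after implantation. A cell was called a dendritic cell when it had no T cell receptor clonotype, 3 or more UMIs summed over Flt3, Zbtb46, Xcr1, Clec9a, Cd209a, Siglech, Ccl22 and Fscn1, 5 or more UMIs of Cd74, fewer than 5 UMIs of the complement C1q genes, and fewer than 10 UMIs of Col3a1, Col1a2 and Sparc. The members were therefore chosen by measured values, and the levels of these genes are a description with no test. Of the 1898 cells without a clonotype, the 88 dendritic cells made 4.64% (95% exact binomial interval 3.73 to 5.68%). The hashtag that marked the source tumor gave 38 dendritic cells from wild-type (WT) mice, 29 from RARα-KO mice and 15 from RARα-TG mice, and 6 could not be assigned.

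RARα, encoded by Rara, is a nuclear receptor for retinoic acid. RARα-KO mice were dLck-Cre × Rara L/L, in which Cre recombinase is driven by the distal Lck promoter and acts in T cells, so the genotype names the T cells of the tumor and not its dendritic cells. RARα-TG mice were CD2-Rara, with Rara placed behind the CD2 promoter, which is used to drive genes in lymphocytes. The WT control was named as C57BL/6 or dLck-Cre animals, and which of these gave the WT tumor cells, and how many mice were pooled, is not given in the sources used here. Sorted CD45.2+ CD3+ T cells and unsorted tumor cells of each genotype were combined. By this design dendritic cells would come in with the unsorted cells, but the barcodes do not record which part a cell came from. Each genotype was 1 sample in 1 pooled 10x 5′ library, so no difference between genotypes could be tested. All intervals below cover counting error only and not the spread between mice. Those of ratios and levels count UMIs summed over cells, so they also leave out the spread between cells.

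Dendritic cells fall into a few branches with different work. Conventional type 1 dendritic cells (cDC1) depend on BATF3 and IRF8 and present antigen from dead cells on MHC class I, conventional type 2 cells (cDC2) mainly present on MHC class II to helper T cells, and plasmacytoid dendritic cells (pDC) depend on TCF4 and release type I interferon on sensing nucleic acids. When a conventional dendritic cell matures it shuts down uptake, turns on CCR7 to travel to the lymph node, and raises both costimulatory and inhibitory ligands.

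The 3 deposited libraries (gene expression, T cell receptor and hashtag) shared their cell barcodes by design, and the matrix held 46394322 gene UMIs. The dendritic cells carried 753527 UMIs, from 1965 to 28610 per cell with a median of 7670.0, and a median of 2532.5 genes. The macrophages used for comparison, chosen by 5 or more C1q UMIs, no clonotype and the same collagen limit, numbered 87 with 860226 UMIs and a median of 9041.0 per cell. The labels name spleen and activated naive CD8 T cells beside a tumor protocol, and the cells went with the tumor: 494 barcodes without a clonotype carried 10 or more UMIs of Col3a1, Col1a2 and Sparc.

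Markers of other cell types were low in the dendritic cells, with a few exceptions. The 6 T cell receptor and CD3 genes summed to 36 UMIs in 6 of the 88 cells, or 47.8 counts per 1000000 UMIs (CPM), against 378 CPM in macrophages and 4530.5 CPM in cells with a clonotype. The 6 neutrophil genes gave 1 UMI in all, the 5 mast cell and basophil genes gave 0, and the 6 NK cell genes gave 2. The 16 monocyte and macrophage genes reached 3185 CPM against 15641 CPM in macrophages, with 6 of the 16 at 0. They stood at 6307 CPM in the Siglech cells and 198 CPM in the Ccl22 or Fscn1 cells, and most of the UMIs in the Siglech cells were Ly6c2 (1034 of 1815) and Plac8 (624), which pDCs also carry. The 7 B cell genes reached 204 CPM with 5 of the 7 at 0, and nearly all of these UMIs were Ighm, which pDCs also transcribe. The 9 MC38 and stromal genes reached 235 CPM in dendritic cells and 278 CPM in macrophages. No doublet caller was run, and the part of doublets or free RNA in these low levels was not tested.

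All 8 genes of the rule were detected. Flt3 (chr5:147330741-147400489, GRCm38), the receptor for the growth factor that dendritic cells need, gave 132 UMIs in 51 cells. Zbtb46 (chr2:181371009-181493262), a transcription factor of the conventional branches, gave 97 UMIs in 38 cells. Macrophages had 0 UMIs of either gene.

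Fscn1 (chr5:142960355-142973189), an actin-bundling protein of mature dendritic cells, gave 1274 UMIs in 30 cells and 2 UMIs in macrophages. Ccl22 (chr8:94745684-94751388), a chemokine of mature dendritic cells, gave 205 UMIs in 27 cells. Siglech (chr7:55768154-55779448), a surface lectin of mouse pDCs, gave 464 UMIs in 43 cells. These 3 genes supplied most of the UMIs that chose the members.

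Markers of the remaining branches were sparser. Cd209a (chr8:3743395-3748984), a C-type lectin, gave 113 UMIs in 23 cells. Clec9a (chr6:129408862-129424764), a receptor for dead cells, gave 63 UMIs in 23 cells. Xcr1 (chr9:123852315-123862029), the chemokine receptor of cDC1, gave 11 UMIs in 4 cells.

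Few members lay near the marker limit of the rule. The marker sum had a median of 14 and a highest value of 229, and 59 cells held 10 or more. At the lowest allowed sum of 3 stood 8 members, and 2 more had a sum of 4. Just outside were 4 cells with a sum of 2 and 12 with a sum of 1. The Cd74 limit left out 21 cells, of which 7 held 4 to 18 Siglech UMIs with Cd74 at 0 to 4, and all 7 of these had UMIs of the pDC gene Ly6d and the leukocyte gene Ptprc. Of the other 14 cells under the Cd74 limit, 13 held Fscn1 and 1 held a Ptprc UMI. The C1q limit left out 2 cells, and no member held a C1q UMI. The collagen limit left out the most, with 76 cells that met every other limit. A further 8 cells met every limit but had a clonotype.

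Each cell was placed by the highest of its UMI sums for Siglech, for Ccl22 plus Fscn1, for Xcr1 plus Clec9a, and for Cd209a. The Siglech subset held 41 cells, or 46.6% of the dendritic cells (35.9 to 57.5%). The Ccl22 or Fscn1 subset held 28 cells (31.8%), the Cd209a subset 8 (9.09%) and the Xcr1 or Clec9a subset 7 (7.95%), while 4 cells tied or had none of these genes. Reduced to 1000 UMIs per cell, the Siglech share was 30.7% and 35.2% of the cells had no subset.

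**Figure D1:**
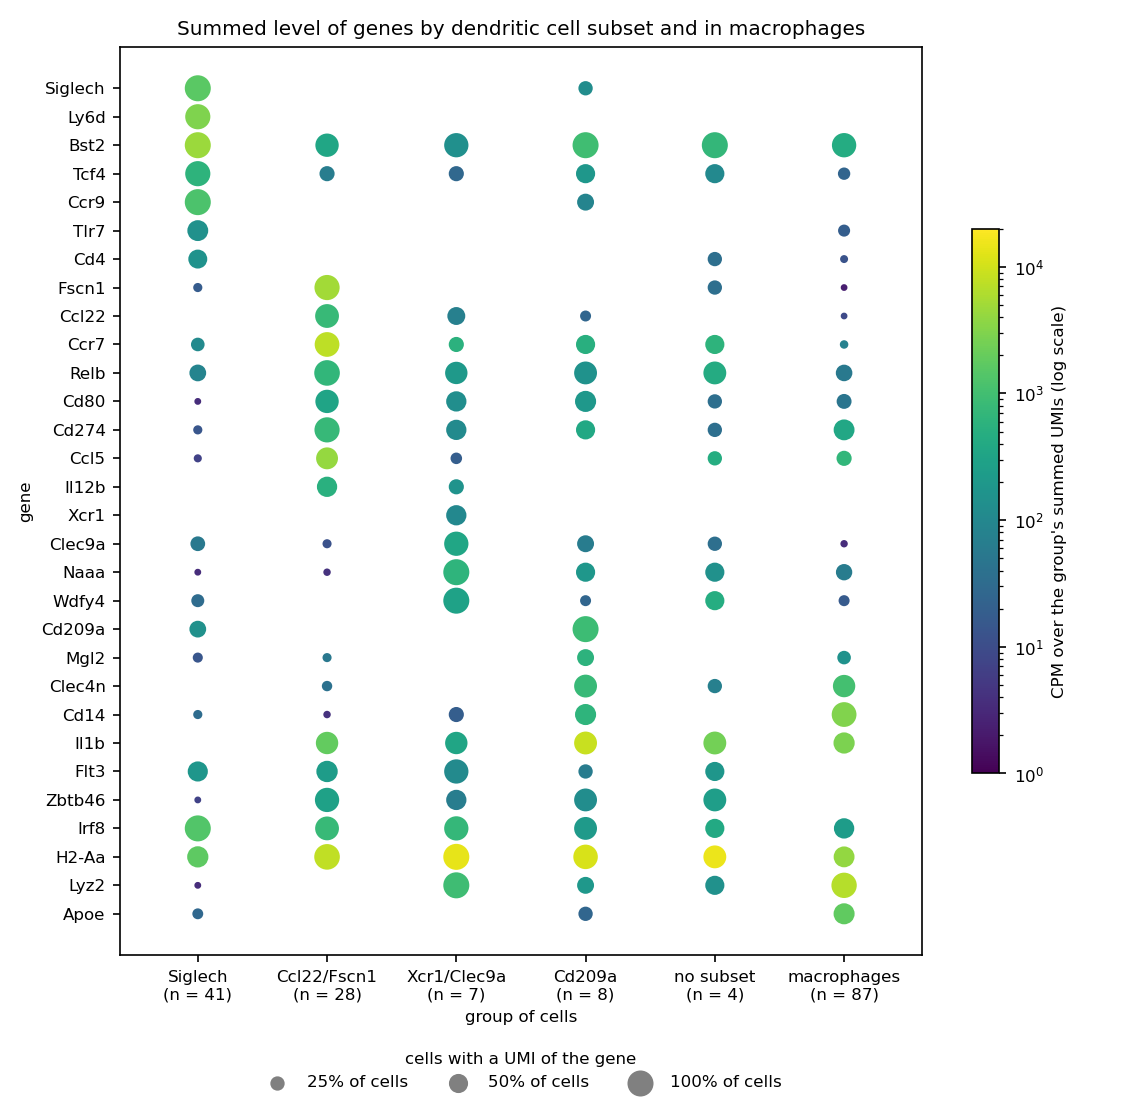
Dot plot of 30 genes (rows) in the 4 subsets, the cells without a subset and the macrophages (columns). Colour is the level in CPM on a log scale and dot size is the percent of cells with a UMI. The pDC genes fill the Siglech column, where Ly6d stood at 2995 CPM, and the maturation genes fill the Ccl22 or Fscn1 column, where Ccr7 stood at 7389 CPM.

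The subsets also parted on genes that the rule did not use. Summed over 14 pDC genes per 10000 UMIs, cells of the Siglech subset ran from 62.4 through a median of 151 to 236, and cells of the Ccl22 or Fscn1 subset from 0 through 3.29 to 21.5. The ranges did not overlap. Summed over the 22 mature genes, the Ccl22 or Fscn1 subset ran from 4.28 through 255 to 364 and the Siglech subset from 3.28 through 8.78 to 25.6, so the lowest cell of the former lay within the range of the latter.

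**Figure D2:**
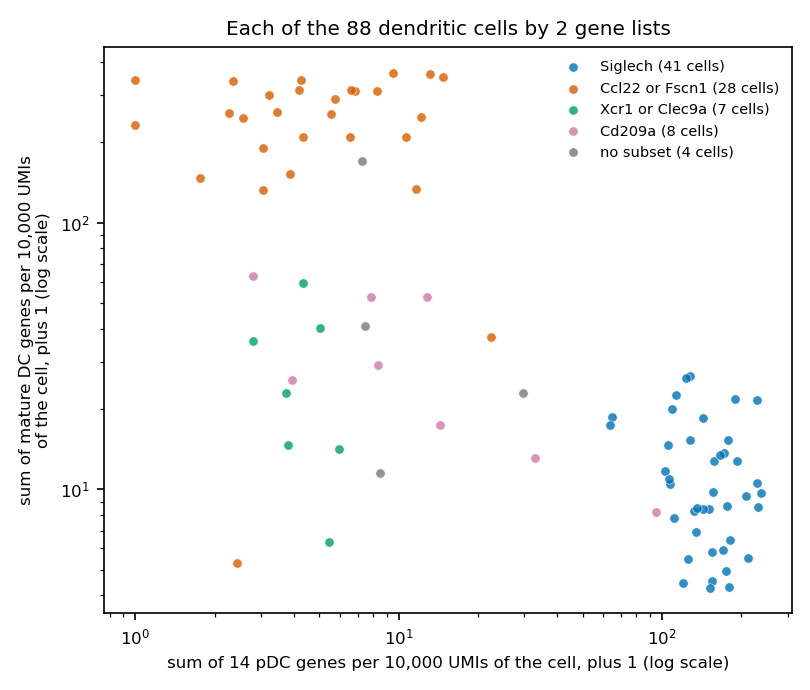
Each point is 1 dendritic cell, placed by its summed UMIs of 14 pDC genes (x) and 22 mature dendritic cell genes (y) per 10000 UMIs plus 1, both on log axes, and coloured by subset. The Siglech cells lie to the right, at 62.4 or more on the pDC axis, and most Ccl22 or Fscn1 cells lie at the top left, with a median of 255 on the mature axis.

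Against macrophages, the antigen-presenting cells most like them in the same tumors, dendritic cells carried pDC and maturation transcripts and lacked the inflammatory chemokines and tissue-remodelling genes of macrophages. Of 4107 genes with 50 or more UMIs over both groups, 19.0% were 2-fold or more higher in dendritic cells and 12.2% were 2-fold or more lower, and the median log2 ratio was 0.24. Of 14 pDC genes 13 were higher by 2-fold or more (median log2 ratio 5.12), and of 20 mature genes 15 were (median 2.60). Of 15 monocyte and macrophage genes 13 were 2-fold or more lower (median -4.97), and 9 of 14 chemokine genes were (median -5.12). Because the rule required dendritic cell markers and forbade C1q, these counts describe the cells it selected.

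Genes high in dendritic cells came from both large subsets. Ly6d, a surface protein of lymphoid and pDC precursors, gave 862 UMIs in 38 dendritic cells and 0 in macrophages. The log2 ratio was 8.36 with the 0 set to 3 UMIs (interval from 8.06). Klk1, a kallikrein protease, gave 380 UMIs and 0, and Ccr9, a chemokine receptor that guides pDCs to the gut, 353 UMIs and 0. Il4i1, an enzyme that consumes amino acids and limits T cell growth, gave 219 UMIs in 25 dendritic cells and 3 in macrophages (log2 ratio 6.38, 4.81 to 8.67). Cacnb3, a calcium channel subunit found in mature dendritic cells, gave 112 UMIs and 1. Atp1b1, Sema7a, Cd209d, Cyb561a3, Iglc3, Cd7, Mzb1, Fcrla, Cox6a2 and Smim5 completed the 15 highest, at log2 ratios of 5.67 for Smim5 to 7.88 for Atp1b1.

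The genes lowest in dendritic cells were macrophage products. Arg1, the arginase of suppressive macrophages, gave 0 UMIs in the 88 dendritic cells and 1985 in the 87 macrophages, a log2 ratio of -9.18 or lower. The monocyte chemokine Ccl2 gave 2 and 1359 UMIs, the matrix protein Spp1 gave 8 and 3953, and the neutrophil chemokine Cxcl2 gave 25 and 5899. The same order held in each genotype for all 4 genes. Arg1 was at 0 in dendritic cells of every genotype, against 352 UMIs in the WT macrophages, 922 in those of RARα-KO and 478 in those of RARα-TG.

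**Figure D3:**
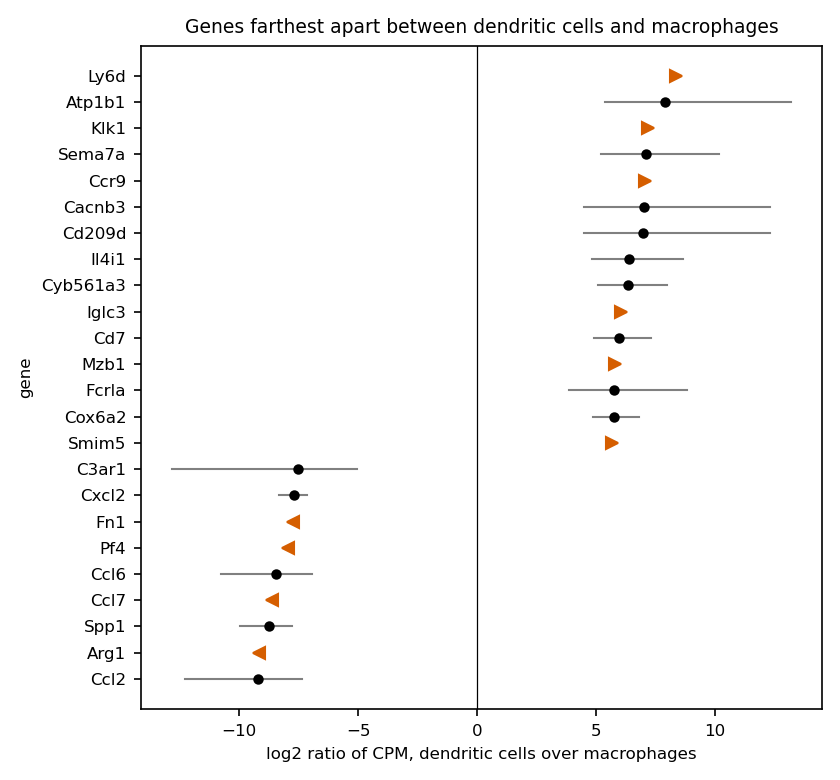
Log2 ratio of CPM in dendritic cells over macrophages for the 15 highest and 9 of the lowest genes, with 95% exact binomial intervals for counting error. Orange triangles are bounds for genes with 0 UMIs on one side, such as Ly6d at 8.36 or more and Arg1 at -9.18 or less.

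MHC class II genes were closer between the cell types. Of 10 MHC class II genes, 2 were 2-fold or more higher in dendritic cells and 1 lower, with a median log2 ratio of 0.63. H2-Aa, an MHC class II alpha chain, stood at 7000.4 CPM in dendritic cells and 3975 CPM in macrophages. The genotypes did not share this direction, since the log2 ratio of H2-Aa was -0.029 for WT, 1.55 for RARα-KO and -0.76 for RARα-TG, and that of H2-Eb1 was 0.075, 1.77 and -1.09. Irf8, the transcription factor shared by cDC1 and pDC, stood at 937 CPM and 227 CPM. Of 14 immediate early and stress genes, 8 were 2-fold or more lower in dendritic cells (median -1.44).

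The Siglech subset carried the pDC program as a whole and is called pDC-like here. All 14 pDC genes other than Siglech were 2-fold or more higher than in the other dendritic cells (median log2 ratio 4.54), where 25% of 4756 genes were 2-fold higher and 14.8% lower and the median of all genes was 0.29. The split itself was made on Siglech, so these ratios describe the subset.

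The counts of 3 surface genes varied from cell to cell. Bst2, a tethering factor that is the classical pDC surface antigen, ran from 12 through a median of 29 to 62 UMIs per cell. Ly6d ran from 0 through 18 to 76 UMIs, and was found in 38 of the 41 cells. Ccr9 ran from 1 through 8 to 31 UMIs. Bst2 and Ccr9 were thus present in every cell of the subset, while 3 cells had no Ly6d UMI.

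Transcription factors of the lineage followed the same division. Tcf4, which sets and maintains pDC identity, stood at 601 CPM in 38 of the 41 cells and at 64.5 CPM in the Ccl22 or Fscn1 subset. Spib, an ETS factor of pDCs and B cells, stood at 337 CPM, with 0 UMIs in the Xcr1 or Clec9a cells and 0 in macrophages. Irf8 stood at 1386 CPM and was detected in all 41 cells. Id2, which opposes TCF4 and marks conventional dendritic cells, gave 3 UMIs in the Siglech subset and 209 in the Ccl22 or Fscn1 subset.

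The nucleic acid sensor genes Tlr7 and Tlr9 lay mostly in this subset. Tlr7, the endosomal receptor for single-stranded RNA, gave 41 UMIs in 25 Siglech cells and 0 in every other dendritic cell. Tlr9, the receptor for unmethylated DNA, gave 20 UMIs in 16 Siglech cells and 3 in the rest. Irf7, which drives interferon transcription, stood at 319.7 CPM. Of 4 tested pattern receptor genes 2 were 2-fold or more higher and 1 lower, and Tmem173, the gene of the DNA sensing adaptor STING, was at a log2 ratio of 0.34.

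Lymphoid transcripts were a second feature. Cd8a gave 128 UMIs in 24 cells, Cd4 gave 43 in 20 cells, and Lag3, an inhibitory receptor also carried by pDCs, gave 123 in 34 cells. Ighm, the heavy chain of IgM, gave 130 UMIs in the 41 cells. The chemokine gene Ccl4 gave 305 UMIs in 31 cells, from 0 through 2 to 43 per cell, against 8 UMIs in the Ccl22 or Fscn1 subset.

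Presentation and costimulation genes were low in the pDC-like cells. Of 12 MHC class II genes, 9 were 2-fold or more lower than in the other dendritic cells (median log2 ratio -1.92). H2-Aa ran from 0 through 8 to 68 UMIs per cell and was detected in 26 of the 41. The costimulatory genes Cd80, Cd86 and Cd40, whose products give T cells their second signal, gave 1, 3 and 1 UMIs in all, and 7 of 8 costimulation genes were 2-fold or more lower (median -4.38). Il1b and the chemokine gene Cxcl16 gave 0 UMIs.

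The Ccl22 or Fscn1 subset as a whole carried the maturation program and is called mature dendritic cell-like here. Some members held little of it. A WT cell placed by 2 Fscn1 UMIs had 0 UMIs of Ccr7 and H2-Aa, 7 of Cd74 and 3 over the mature genes. A RARα-KO cell placed by 1 Fscn1 UMI had 0 of Ccr7 and 32 over the mature genes. Both cells are kept in the shares and ratios below. The highest MC38 and stromal sum of a WT cell in the subset was 22.8 per 10000 UMIs, against 4.90 in RARα-KO. Outside the rule, 18 of 20 mature genes were 2-fold or more higher than in the other dendritic cells (median log2 ratio 3.31), against 13.1% of 4756 genes higher and 25.8% lower with a median of -0.30 over all genes. All 14 pDC genes were 2-fold or more lower (median -4.04).

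Ccr7, the receptor that brings dendritic cells into lymphatics, was found in most cells. Its UMIs ran from 0 through 61.0 to 176 per cell, and 25 of the 28 cells had at least 1. The level was 7389 CPM against 108 CPM in the Siglech subset and 74.4 CPM in macrophages. Fabp5, a fatty acid carrier, stood at 3644 CPM, and Marcksl1, an actin-binding protein, at 2056 CPM. Relb, the NF-κB subunit needed for dendritic cell maturation, stood at 677 CPM and Socs2, an inhibitor of cytokine signalling, at 722 CPM.

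Stimulatory and inhibitory ligands were both present. Cd80 stood at 327 CPM, Cd86 at 532 CPM and Cd40 at 415 CPM, and 7 of 8 costimulation genes were 2-fold or more higher (median 1.74). Cd274, the gene of PD-L1, stood at 749.8 CPM in 26 of the 28 cells against 13.9 CPM in the Siglech subset. Il4i1 stood at 867 CPM and Cd200, a ligand that calms myeloid cells, at 343 CPM. Of 8 inhibitory ligand genes, 5 were 2-fold or more higher (median 1.68).

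Cytokines and chemokines varied strongly from cell to cell. Ccl5, which attracts T cells, gave 1020 UMIs in 19 of the 28 cells and ran from 0 through 5.5 to 208. Il12b, the shared subunit of IL-12 and IL-23, gave 133 UMIs in 16 cells and ran from 0 through 1.0 to 40. Cxcl16, the ligand of CXCR6 on tumor T cells, was more even, with 278 UMIs in 27 cells. Cxcl9 and Cxcl10, the interferon-induced ligands of CXCR3, were found in 9 and 11 cells with 107 and 281 UMIs.

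Of 7 tested cDC1 genes, 4 were 2-fold or more lower in this subset and 1 was higher (median log2 ratio -1.36). The higher one was Batf3, the transcription factor of cDC1, which gave 46 UMIs in 18 of the 28 cells and 0 in the Siglech and Cd209a subsets. Zbtb46, the factor of the conventional branches, gave 71 UMIs in 24 cells. The highest ratios outside the rule after Cd63, a lysosomal membrane protein at log2 7.83, belonged to Cdc42ep3, Ccl5, Il4i1, Mreg, Cacnb3 and Fabp5, at 7.05 for Cdc42ep3 to 6.20 for Fabp5.

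The 7 cells of the Xcr1 or Clec9a subset are called cDC1-like. Their cDC1 genes per 10000 UMIs ran from 28.3 through 40.2 to 54.1. The other groups overlapped this range, with highest cells at 51.2 without a subset, 48.8 in Ccl22 or Fscn1, 37.2 in Siglech and 36.3 in Cd209a. Of 7 tested cDC1 genes, 5 were 2-fold or more higher than in the other dendritic cells and 0 lower. Their median log2 ratio was 2.26 against -0.44 over all genes, and 1 gene had an interval below 0. Irf8 ran from 0 to 28 UMIs per cell. Naaa, a lysosomal amidase of cDC1, was detected in all 7 cells at 1 to 21 UMIs with a median of 10, at a log2 ratio of 4.25 to the other dendritic cells (3.53 to 5.03). Wdfy4, which cDC1 need for cross-presentation, was also in all 7 cells, with 33 UMIs. Batf3 was in all 7 with 11 UMIs.

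These cells also had high MHC class II levels and were the deepest. H2-Aa ran from 130 through 226 to 391 UMIs per cell, 14098 CPM, against 7824 CPM in the mature-like cells. Cd74, the invariant chain, ran from 385 through 655 to 1074 UMIs. Their median depth was 12467.0 UMIs against 6812.0 in the Siglech subset. Tlr3, the double-stranded RNA sensor of cDC1, was at 0. The highest ratios were those of Plet1 at log2 5.04 and Lyz2 at log2 4.84, the latter a lysozyme gene of macrophages.

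The 8 cells of the Cd209a subset were left unnamed, since the genes with the highest ratios were not on the cDC2 list. Wfdc17, Clec4n, Cd14, Tgfbi, Il1r2 and Il1b led, at log2 ratios to the other dendritic cells of 7.07 for Wfdc17 to 3.37 for Il1b, and Cd14 and Clec4n are genes of monocytes and macrophages. Il1b, the inflammatory cytokine, gave 701 UMIs in 6 of the 8 cells and ran from 0 through 82.5 to 201. The cDC2 lectin genes Clec10a and Mgl2 gave 32 UMIs in 6 cells and 46 UMIs in 3 cells. Of 9 cDC2 genes, 5 were 2-fold or more higher and 2 lower than in the other dendritic cells (median log2 ratio 1.14), where 7.86% of 4756 genes were higher and 19.0% lower and the median of all genes was -0.13. Per 10000 UMIs the cDC2 genes had a median of 28.0 in these cells, above the medians of 0.475 to 15.3 in the other subsets. Of 6 monocyte and macrophage genes 1 was 2-fold or more higher (median 0.41). The pDC genes ran from 1.80 through 9.58 to 93.6 per 10000 UMIs, so 1 cell of this subset lay within the range of the Siglech cells. The 4 cells without a subset had Cd74 at 43366 CPM and H2-Aa at 14992 CPM, and Zbtb46 in 3 of the 4.

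The make-up of the dendritic cells differed between the tumors of the 3 genotypes. Siglech cells made 55.3% of WT dendritic cells (38.3 to 71.4%, 21 of 38). Of the RARα-KO cells they made 24.1% (10.3 to 43.5%, 7 of 29), and of the RARα-TG cells 73.3% (44.9 to 92.2%, 11 of 15). Shares within the same total are tied, so a lower Siglech share comes with a higher share of the other cells together. The mature-like cells made 26.3% of WT cells (13.4 to 43.1%, 10 of 38). They were 48.3% of RARα-KO cells (29.4 to 67.5%, 14 of 29) but 13.3% of the RARα-TG cells (1.66 to 40.5%, 2 of 15). For both subsets the intervals of RARα-KO and WT overlapped, and for the Siglech subset those of RARα-KO and RARα-TG did not. The gap was narrow, from 43.5 to 44.9%. Over the alternative settings the Siglech share ran from 34.2 to 60.6% for WT, from 17.2 to 28.0% for RARα-KO and from 53.3 to 78.6% for RARα-TG. These are ranges of the shares without their counting intervals, so they do not show whether the gap was kept. The cDC1-like cells numbered 4, 3 and 0, where 0 of 15 cells allows a share of up to 21.8%, and the Cd209a subset held 2 cells in each genotype.

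Set against all cells without a clonotype, the Siglech cells were 4.31% of the WT total (2.69 to 6.52%). The RARα-KO value was 0.987% (0.398 to 2.02%), whereas RARα-TG had 4.33% (2.18 to 7.62%). The mature-like cells were 2.05%, 1.97% and 0.787% for WT, RARα-KO and RARα-TG. The intervals of RARα-KO and WT did not overlap for the Siglech cells. These denominators include T cells without an assembled receptor. Without cells with 3 or more T cell gene UMIs the Siglech cells were 5.92% of the WT total (3.7 to 8.90%), 1.76% for RARα-KO (0.712 to 3.60%) and 7.75% for RARα-TG (3.93 to 13.4%). The mature-like cells were then 2.82% (1.36 to 5.12%), 3.53% (1.94 to 5.85%) and 1.41% (0.171 to 5.0%), with intervals that overlapped. The 7 Siglech cells under the Cd74 limit came from all genotypes, namely 2 from WT, 1 from RARα-KO and 2 from RARα-TG, with 2 unassigned.

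Dendritic cells as a whole made 7.80% of WT cells without a clonotype (5.58 to 10.6%, 38 of 487). The same share was 4.09% for RARα-KO (2.76 to 5.82%, 29 of 709) and 5.91% for RARα-TG (3.34 to 9.55%, 15 of 254). Cells without a clonotype include T cells whose receptor was not assembled, and when cells with 3 or more T cell gene UMIs were left out the shares were 10.4%, 7.30% and 9.86%. Among dendritic cells and macrophages together, the WT share of dendritic cells was 63.3% (49.9 to 75.4%, 38 of 60). For RARα-KO it was 43.9% (31.7 to 56.7%, 29 of 66), and for RARα-TG 53.6% (33.9 to 72.5%, 15 of 28). The intervals of the 3 genotypes overlapped in both measures of the whole.

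**Figure D4:**
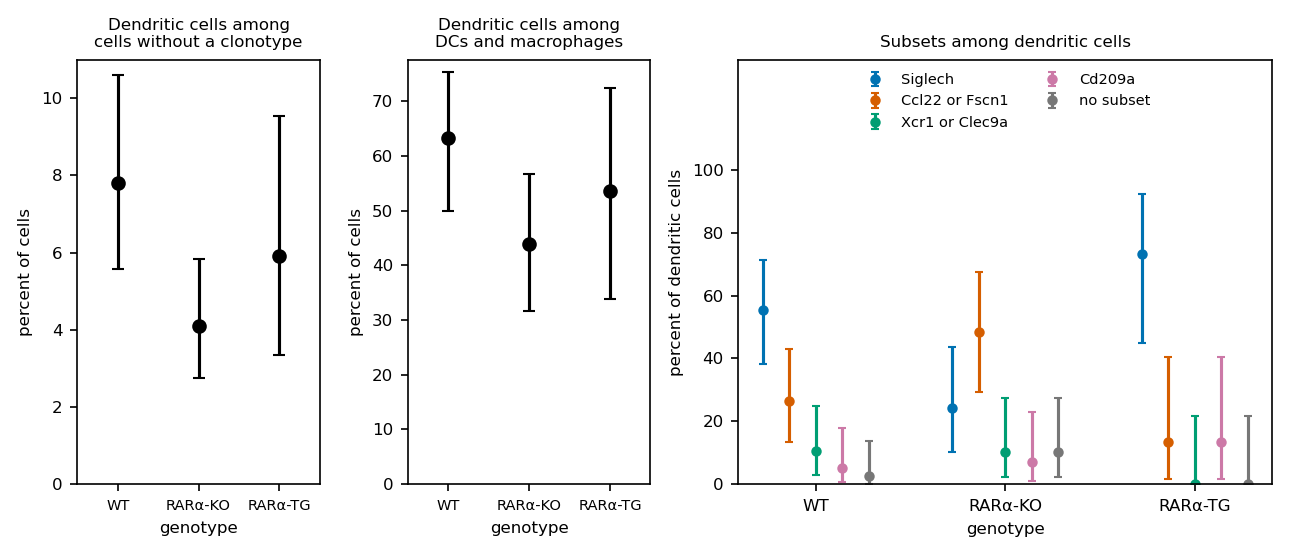
Percent of cells with exact binomial 95% intervals in WT, RARα-KO and RARα-TG: dendritic cells among cells without a clonotype, dendritic cells among dendritic cells and macrophages, and the subsets among dendritic cells. The Siglech share is 24.1% in RARα-KO against 55.3% in WT and 73.3% in RARα-TG.

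Rara itself was rare in dendritic cells. It gave 39 UMIs in 27 of the 88 cells, 51.8 CPM against 37.2 CPM in macrophages. WT cells gave 23 Rara UMIs (69.4 CPM). The 29 RARα-KO cells gave 12 (44.8 CPM), and RARα-TG gave 3 (27.6 CPM). The log2 ratio of RARα-KO to WT was -0.63 (-1.77 to 0.44) and that of RARα-TG to WT was -1.33 (-3.71 to 0.39), so neither a loss nor a gain of Rara in dendritic cells was detectable at this depth. These pooled values also mix the subsets, since Rara gave 21 UMIs in the 41 Siglech cells and 2 in the 28 mature-like cells, the latter at a log2 ratio of -3.18 (-6.28 to -1.23) to the other dendritic cells. The Siglech cells gave 15 Rara UMIs for WT (99.4 CPM), 2 for RARα-KO (42.6 CPM) and 3 for RARα-TG. A count near the 5′ end does not show whether the floxed exon was present.

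Other retinoid genes were near the limit of detection. Rxrb, a partner receptor, gave 17 UMIs, and Rarg and Rarb gave 4 and 1. Rxra and Rxrg were at 0. Of the enzymes that make retinoic acid, Aldh1a2 gave 4 UMIs in 3 cells and Aldh1a1 and Aldh1a3 gave 0, and the degrading enzymes Cyp26a1 and Cyp26b1 gave 0. Tgm2, a gene that retinoic acid can induce, gave 18 UMIs in dendritic cells and 176 in macrophages.

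The genotypes were first compared across all dendritic cells. Of 4026 genes with 20 or more UMIs, 3.95% were 2-fold or more higher in RARα-KO and 9.84% lower, with a median log2 ratio of -0.12. Of 14 pDC genes, 9 were 2-fold or more lower (median -1.16), and Siglech was at -1.15. Of 19 mature genes 2 were 2-fold or more higher and 0 lower (median 0.62), with Ccr7 at 0.89 and Ccl5 at 1.88. Pooled ratios mix levels within subsets with the subset shares given above. Within the Siglech subset the pDC list had a median of -0.051, and within the Ccl22 or Fscn1 subset the mature list had a median of 0.17.

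In the pDC-like cells of RARα-KO (7 cells, 46967 UMIs) and WT (21 cells, 150898 UMIs), most of the defining genes stood at like levels. Of 1780 genes 3.76% were 2-fold or more higher and 10.1% lower in RARα-KO. Of the 14 pDC genes 1 was 2-fold or more lower and 0 were higher. Bst2 ran from 12 through 29.0 to 62 UMIs per cell in WT and from 21 through 37.0 to 61 in RARα-KO. Ly6d ran from 0 through 20 to 76 in WT and from 5 through 18.0 to 47 in RARα-KO. The ranges of both genes overlapped over most of their width, at log2 ratios of 0.43 (0.22 to 0.64) and -0.18 (-0.45 to 0.094).

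The exception was Cox6a2, a subunit of mitochondrial cytochrome c oxidase that pDCs carry. It ran from 0 through 12 to 43 UMIs per cell in 18 of 21 WT cells and from 0 through 1.0 to 12 in 4 of 7 RARα-KO cells, a log2 ratio of -2.24 (-2.97 to -1.59). Without the highest cell of each group the ratio was -3.21, and thinned to 1000 UMIs per cell it was -1.30 (-3.01 to 0.048). In RARα-TG Cox6a2 ran from 0 through 9.0 to 28 UMIs in 10 of 11 cells, close to WT at a log2 ratio of -0.19. The mitochondrial share of UMIs in the Siglech subset had medians of 1.44% for WT, 1.31% for RARα-KO and 1.48% for RARα-TG.

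Isg15, an interferon-induced ubiquitin-like protein, was uneven across the pDC-like cells. It gave 66 UMIs in 9 of 21 WT cells, 0 in the 7 RARα-KO cells and 6 in 3 of 11 RARα-TG cells. The highest WT cell held 28 of the 66. With the 0 set to 3 UMIs the log2 ratio of RARα-KO to WT was -2.78 (interval up to -2.44). Without the highest cell it was -1.78 (up to -1.41).

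The RARα-TG tumor had 15 dendritic cells and 108858 UMIs, so its values are the least precise. Across all dendritic cells, 5.50% of 3397 genes were 2-fold or more higher than in WT and 9.48% lower, with a median log2 ratio of 0.021. Cst3, the cystatin C gene of conventional dendritic cells, gave 142 UMIs against 4091 in WT, a log2 ratio of -3.24 (-3.49 to -3.00). Ccl5 was at -4.09 and Cd274 at -2.38. These pooled ratios mix levels within subsets with the subset shares, and Siglech cells were 11 of 15 in RARα-TG against 21 of 38 in WT. Of 20 mature genes 9 were 2-fold or more lower (median -0.93), and the tumor held 2 mature-like cells. With 2 such cells, RARα-TG was not compared within the Ccl22 or Fscn1 subset.

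Within the pDC-like cells, RARα-TG (11 cells, 74984 UMIs) and WT differed in MHC class II and interferon genes. Of 2026 genes 3.60% were 2-fold or more higher in RARα-TG and 6.17% lower. Of 8 MHC class II genes 3 were 2-fold or more lower and 0 higher (median -0.78 against 0.0089 over all genes). H2-Aa ran from 0 through 8.0 to 68 UMIs in WT, with 14 of 21 cells positive, and from 0 through 0.0 to 28 in RARα-TG, with 5 of 11 positive, a log2 ratio of -1.13 (-1.52 to -0.75). H2-Eb1 was at -1.32, H2-DMa at -1.02, Cd74 at -0.81 and H2-Ab1 at -0.74. Thinned to 1000 UMIs per cell, H2-Aa was at -1.36 (-2.58 to -0.30) and H2-Eb1 at -1.71 (-3.69 to -0.18). The thinned interval of H2-Ab1 included 0, at -0.97 (-3.02 to 0.68). Cd74 is also a gene of the rule, which cuts it at 5 UMIs. Of 11 MHC class I and cross-presentation genes 0 were past 2-fold (median -0.29).

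Of 5 interferon response genes 4 were 2-fold or more lower in the RARα-TG pDC-like cells. Isg15 was at -2.45 and the transcription factor Irf1 at -1.21. Thinned to 1000 UMIs per cell, Isg15 was at -1.39 (-6.95 to 1.77) and Irf1 at -1.87 (-5.05 to 0.25), so both thinned intervals included 0. Iigp1, an interferon-induced GTPase, gave 0 UMIs against 37, a log2 ratio of -2.62 with the 0 set to 3 UMIs (interval up to -2.24). It was -1.68 without the highest cell (up to -1.25). Thinned to 1000 UMIs per cell it was -0.067 (up to 0.70), so the thinned interval was not clear of 0. Ccl4 ran from 0 through 1.0 to 9 UMIs in RARα-TG and from 0 through 2.0 to 43 in WT, a log2 ratio of -2.13. Ly6d was at -1.01, and Siglech and Bst2 were at 0.22 and 0.018. The heat shock genes Hsph1 and Dnajb1 were higher, at 3.44 and 2.22, and in RARα-KO Dnajb1 was at 2.19.

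**Figure D5:**
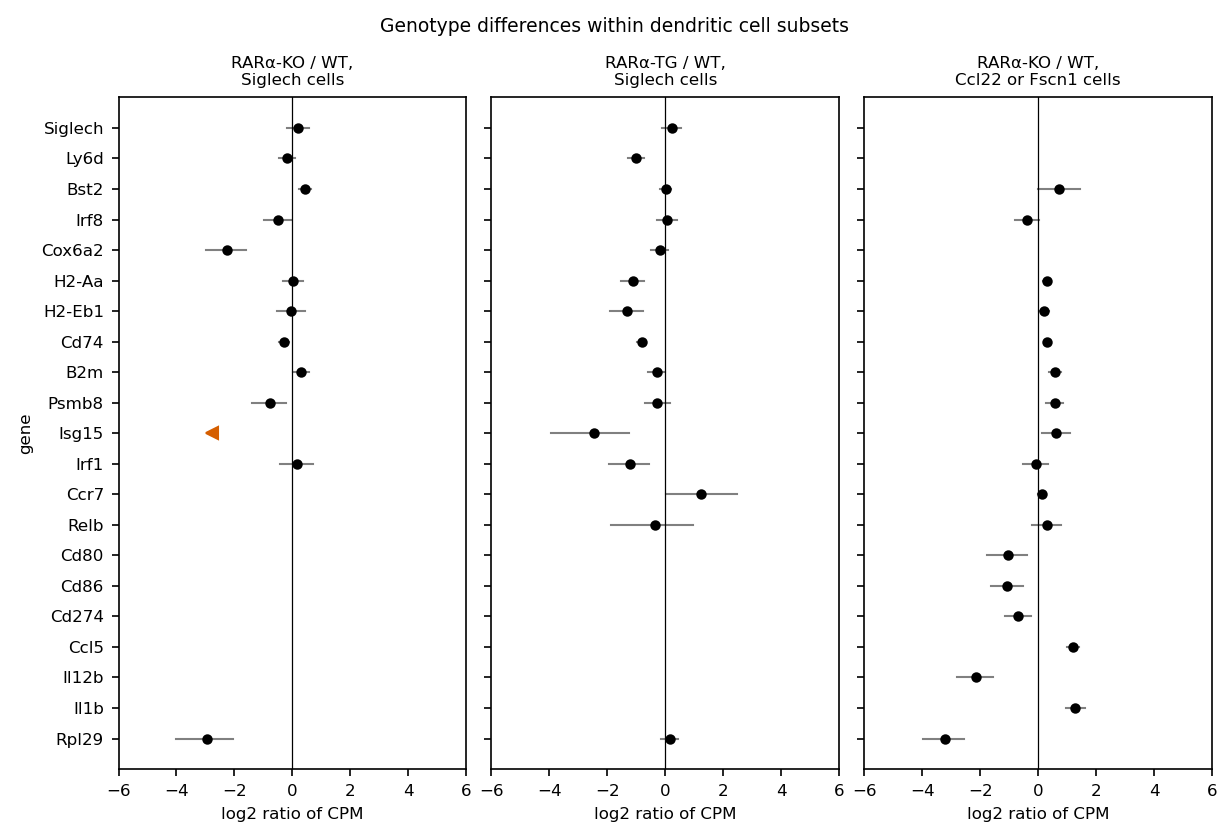
Log2 ratios of CPM with 95% exact binomial intervals for 21 genes in 3 comparisons: RARα-KO over WT in Siglech cells, RARα-TG over WT in Siglech cells, and RARα-KO over WT in Ccl22 or Fscn1 cells. Orange triangles, drawn without intervals, are ratios where one side had 0 UMIs, set to 3. Genes under 20 UMIs in a comparison are left out. Cox6a2 lies at -2.24 in the first panel, H2-Aa at -1.13 in the second, and Il12b at -2.16 in the third.

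The mature-like cells of RARα-KO (14 cells, 130980 UMIs) and WT (10 cells, 95666 UMIs) were compared next. The WT cell and the RARα-KO cell without Ccr7 UMIs, described above, were kept in. Of 1659 genes 9.95% were 2-fold or more higher in RARα-KO and 9.89% lower. Of 19 mature genes 1 was 2-fold or more higher and 2 were lower (median 0.17). Ccr7 ran from 0 through 67.5 to 131 UMIs in WT and from 0 through 58.0 to 176 in RARα-KO, a log2 ratio of 0.13 (-0.010 to 0.27). Relb was at 0.29 and Socs2 at 0.28. Fabp5 was at 0.81, with 1 RARα-KO cell holding 274 of the 487 UMIs. The rule genes Fscn1 and Ccl22 were at -0.080 and -0.52 (-0.97 to -0.070).

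Costimulation genes were lower in RARα-KO. Of 6 such genes, 4 were 2-fold or more lower and 0 higher, with a median log2 ratio of -1.06 against 0.016 over all genes. Tnfsf9, the ligand of the costimulatory receptor 4-1BB, ran from 0 through 8.0 to 25 UMIs in WT and from 0 through 0.5 to 9 in RARα-KO, a log2 ratio of -2.54 (-3.27 to -1.88). Cd86 ran from 0 through 8.0 to 13 in WT and from 0 through 3.5 to 10 in RARα-KO, a log2 ratio of -1.08 (-1.62 to -0.54). The per-cell ranges overlapped for both genes.

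The other 4 costimulation genes had ratios below 0 of different size. Cd80 was at -1.05 and Icam1, the adhesion ligand of LFA-1, at -1.31. Cd83 was at -0.37 (-0.69 to -0.055) and Cd40 at -0.13 (-0.73 to 0.47), so 5 of the 6 intervals lay below 0. Without the cell with the most UMIs in each group the ratios were -2.85 for Tnfsf9, -1.09 for Cd86, -1.19 for Cd80 and -1.32 for Icam1. Thinned to 1000 UMIs per cell, Tnfsf9 was at -3.66 (-9.11 to -0.80) and Icam1 at -2.07 (-4.59 to -0.068). Cd86 was then at -1.07 (-2.84 to 0.58), Cd83 at -0.58 (-1.70 to 0.53) and Cd40 at -0.75 (-2.80 to 1.23). The thinned intervals of Cd86, Cd83 and Cd40 thus included 0, and no thinned ratio was available for Cd80. Of 7 migration genes, 4 were 2-fold or more lower (median -1.31), with the integrin gene Itga4 at -1.52 and the oxysterol receptor gene Gpr183 at -1.69. When thinned, Itga4 was at -1.49 with an interval that included 0 (-4.11 to 0.74), and Gpr183 at -3.29 (-8.79 to -0.33).

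The summed UMIs of Il12b were lower in RARα-KO and those of Ccl5 higher. Il12b ran from 0 through 1.5 to 40 UMIs in 6 of 10 WT cells and from 0 through 3.0 to 6 in 9 of 14 RARα-KO cells. The median was thus higher in RARα-KO and the sum lower, with WT at 101 UMIs and RARα-KO at 31 (log2 ratio -2.16, -2.79 to -1.56). The highest WT cells held 40 and 37 of the 101 Il12b UMIs, and thinned to 1000 UMIs per cell the ratio was -0.75 (-2.80 to 1.23). Ccl5 ran from 0 through 5.5 to 133 in 7 of 10 WT cells and from 0 through 37.0 to 208 in 9 of 14 RARα-KO cells, a log2 ratio of 1.21 (1.0 to 1.42), or 1.76 without the highest cell of each group and 1.94 when thinned. Il1b was at 1.28, with 1 RARα-KO cell holding 162 of the 349 UMIs.

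MHC class I genes lay slightly higher in RARα-KO, at a median log2 ratio of 0.57 over 11 genes with 1 past 2-fold. B2m, the light chain of MHC class I, was at 0.59 (0.38 to 0.79), and Psme2, a proteasome activator subunit, at 0.70. MHC class II genes had a median of 0.31 over 9 genes. The inhibitory ligand genes Il4i1 and Cd274 were at -1.01 and -0.70. Thinned to 1000 UMIs per cell, Il4i1 was at -2.19 (-4.26 to -0.49) and Cd274 at -1.29 (-3.51 to 0.68), the latter with an interval that included 0.

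The mature-like cells of the 2 genotypes also differed in quality measures. The mitochondrial share had a median of 0.946% in WT, with a highest cell at 7.74%, and 0.303% in RARα-KO, from 0.123 to 1.04%. The mitochondrial genes mt-Nd5, mt-Nd4 and mt-Nd1 were at log2 ratios of -3.26, -3.21 and -2.86, and the heat shock gene Hspa1a was at 2.66. Depth was alike, with medians of 9203.5 and 9133.5 UMIs. The part of these measures in the ratios above was not tested.

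A few transcripts outside the dendritic cell lists marked the RARα-KO tumor. Gm42031 gave 219 UMIs in 25 of 29 RARα-KO dendritic cells and 0 in WT and RARα-TG, and Gm43305 gave 56 UMIs in 20 RARα-KO cells and 0 in WT. Gm42031 was in 6 of the 7 pDC-like and 13 of the 14 mature-like cells of RARα-KO, and in 14 of its 37 macrophages, at 245 CPM there against 818 CPM in dendritic cells. Rpl29, a ribosomal protein gene, ran from 4 through 12 to 67 UMIs per WT cell. The range was from 0 through 2.0 to 12 for RARα-KO cells, and from 8 through 13.0 to 28 for RARα-TG cells. The log2 ratio of Rpl29 to WT in RARα-KO was -3.04 over all dendritic cells, -2.95 in the Siglech subset and -3.23 in the Ccl22 or Fscn1 subset. Genetic background, the Rara deletion in T cells, the mouse and the tumor cannot be told apart with 1 sample per genotype.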

How the data were processed

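The deposited matrix holds UMI counts per gene and barcode that the authors made with Cell Ranger (6.1.0 in their notes, while the file header names Cell Ranger 4) on mm10, with hashtag counts in the same matrix and T cell receptor contigs in a separate table. Clonotypes, hashtags and gene counts were joined by barcode, and a genotype was given where the top hashtag had 10 or more UMIs and at least 3 times the next. Counts were summed over cells and expressed as CPM of all gene UMIs. Ratios carry exact binomial, levels exact Poisson and shares Clopper-Pearson intervals (95%), from scipy 1.17.1 in Python 3.11.15, and a sum of 0 was set to 3 UMIs. With 1 sample per genotype no test was made. On simulated data for dendritic cells against macrophages the intervals held the true value for 95.5% of 3907 unchanged genes. The simulated sums were Poisson, the model that the intervals assume, with no spread between cells. This checks the calculation only and not the coverage on real cells. Genes named are the rule genes, the most abundant and highest-ratio genes of each list, and the highest and lowest ratios among genes with 20 or more UMIs (50 against macrophages). Genes named for their ratio inside a genotype's subset were chosen after their values were seen. Values of 2 genes are not reported here. Members and lists were chosen with earlier results of these data known. Gene positions are those of RefSeq on GRCm38, matched by symbol for 407 of 416 genes.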

Additional observations from a re-analysis of the deposited data

Results flagged for a closer look

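The ratio of RARα-KO to WT pointed in opposite directions in the pDC-like and the mature-like cells for 20 of 1076 genes with 20 or more UMIs in both, each with counting intervals clear of 0, and for 3 of them by 2-fold or more in both subsets. The log2 ratio of Epsti1, an interferon-induced gene, was -2.17 in the Siglech subset and 2.0 in the Ccl22 or Fscn1 subset. That of Ifitm3, an interferon-induced membrane protein, was -1.38 (interval up to -0.97), with 0 UMIs in RARα-KO set to 3, and 1.24. That of Hmgb2, a chromatin protein of dividing cells, was 1.46 and -2.45. Without the highest cell of each group Epsti1 was at -2.81 and 3.14. Ifitm3 was then at -0.34, with its interval reaching 0.15, and at 0.45 (-0.21 to 1.13). Hmgb2 was at 1.49 (-0.052 to 2.98) and -2.36. The intervals of Ifitm3 in both subsets and of Hmgb2 in the Siglech subset were thus no longer clear of 0. The difference between subsets was not tested, since each genotype is 1 sample.

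In the T cell receptor library, 59 of the 88 dendritic cells (67.0%) had a contig although they had no clonotype, against 38 of 87 macrophages (43.7%) and 185 of 494 MC38 or stromal cells (37.4%). Of the 61 contigs in dendritic cells 3 were productive and 55 were TRBV26 without a constant gene. The Siglech and the Ccl22 or Fscn1 subsets were alike, at 68.3% and 67.9%.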

How the results depend on the processing

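No paired analysis was possible because each genotype is 1 sample with no replicate number. Shares and gene counts were recomputed with other limits on markers, depth, hashtags and mitochondrial share, with CPM over fewer genes, with cells weighted equally, without the highest cell, and thinned to 1000 UMIs (3 macrophages left out). Of these recomputed shares and counts 198 stayed within their interval or within 1.5 times, and 15 moved. Of recomputed ratios of single genes 672 stayed, 146 moved and 10 turned direction. Those that moved included Cox6a2, Iigp1, Ifitm3 and Ccl5 within subsets, with values given beside these genes. Without cells with 3 or more T cell gene UMIs, the dendritic share was 7.30% for RARα-KO and 9.86% for RARα-TG. Of the same cells the Siglech subset was 7.75% for RARα-TG, and the mature-like subset 3.53% for RARα-KO. Thinning gave Siglech shares of 34.2% in WT and 30.7% in all, 2.27% Xcr1 or Clec9a, 3.41% Cd209a, 35.2% without a subset, 18.7% of genes lower against macrophages and 7.64% higher in RARα-KO. The share higher in RARα-KO was 9.95% within the Ccl22 or Fscn1 subset. For RARα-TG, 3.0% were higher without the highest cell, and within the Siglech subset 3.60% were higher and 6.17% lower. Direction turned for Il12b in RARα-KO when thinned (0.39), for Cxcl9 (-0.75), Cxcl10 (-0.73) and Fscn1 (-0.080) within the Ccl22 or Fscn1 subset, for Cst3 (-0.16) and Siglech (0.19) within the Siglech subset, and for RARα-TG Ccr7 (1.23) there. Within subsets, it turned for Bst2 (-0.083) and Ccl22 (0.32) when thinned and for Isg15 in mature-like cells (-0.37) without the highest cell. Il12b in mature-like cells was at -0.75 (-2.80 to 1.23) when thinned. The cause of these shifts was not tested. The subset shares without T cell gene cells, the fits within the Ccl22 or Fscn1 subset, the thinned and left-out-cell fits within subsets, and the Cd74 alternative were chosen after seeing the data. Dropping the Cd74 limit for Siglech cells moved no share past its interval.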
